A study of Mus musculus with 15 samples.

Results

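Diluted adult kidney cortex, amplified with the protocol used for single cells, was set against standard-labelled adult kidney cortex. The comparison takes 3 arrays of each kind, which makes 6 of the 15 arrays of a mouse kidney series. These 6 were picked out by their labels, with earlier results of these data known. The other arrays hold 5 single juxtaglomerular (JG) cells and 4 single cells of the embryonic metanephric mesenchyme (MM). Every cortex sample came from adult male mice with a Ren1c-YFP transgene, a yellow fluorescent reporter of the renin gene, on a strain given as unspecified, and none was pooled. In both groups the medulla was cut away and a small area of cortex with several cell types was lysed. The diluted group was labelled with SCAMP, the single cell protocol, for which 32 rounds of amplification are recorded. The standard-labelled group was labelled with the NuGEN WT-Ovation Pico kit, for which 1 round is recorded. The labels also name different ways of preparing the RNA, a lysis buffer for the diluted group and an RNA purification protocol for the standard-labelled group. Labelling, amount of RNA and RNA preparation therefore cannot be told apart. The labels do not tell whether the arrays of a group stand for separate animals. The p-values below therefore reflect the variation among these particular samples, and that variation may be technical.

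The kidney cortex consists largely of proximal tubules, which take back filtered solutes and proteins, make glucose and burn fatty acids, with stretches of the distal segments, glomeruli and vessels between them. Before hybridisation to an array, RNA is copied into cDNA and amplified, and each transcript is read only as far as it was copied. Copying that starts at the poly(A) tail has to run along the message to reach its other end, whereas copying from random sites can start anywhere and can include RNAs without a tail. Which primers each protocol used here is not given in the sources used here.

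Values are log2 signals as deposited, so a difference of 1 is a 2-fold change, and every difference below is diluted minus standard-labelled. Array medians lay between 5.73 and 5.74 for diluted cortex and between 5.89 and 5.96 for the standard-labelled arrays. A level was called above background when it passed the 99th percentile of the 1178 olfactory and vomeronasal receptor genes on its own array, which stood at 6.19 to 6.30 on the diluted arrays and at 6.31 to 6.52 on the standard-labelled ones. By that measure 48.2% to 50.4% of 19938 genes were above background on the diluted arrays and 43.7% to 48.1% on the standard-labelled arrays, of which A was the lowest. Across probe sets, which are not independent, arrays correlated at 0.991 to 0.995 within diluted cortex, at 0.989 to 0.992 within standard-labelled cortex and at 0.882 to 0.890 between them. Tubule markers were bright in both groups: Slc34a1, the phosphate transporter of the proximal tubule, spanned 13.03 to 13.11 on diluted and 10.90 to 11.02 on standard-labelled arrays. Umod, the uromodulin of the thick ascending limb, spanned 12.46 to 12.54 on diluted and 12.06 to 12.16 on standard-labelled arrays. Of 10 measured genes of inner medulla and papilla, 5 were above background on all 3 arrays of diluted cortex and 5 on all 3 of standard-labelled cortex. These levels do not settle how far the samples were free of medulla.

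Most genes bright enough to be tested differed between diluted and standard-labelled cortex. Of 12828 genes tested with limma, 5463 (42.6%) were higher in diluted cortex and 4189 (32.7%) were lower at a Benjamini-Hochberg adjusted p under 0.05. Differences of at least 2 log2 units, a 4-fold change, were found in 1047 genes (8.16%) that were higher and 765 (5.96%) that were lower. The median difference was -0.02 over all measured genes, with quartiles of -0.32 and 0.43, and 0.12 over those tested, with quartiles of -0.56 and 0.94. The groups did not overlap in 5621 genes (43.8%) with higher and 4408 (34.4%) with lower values in diluted cortex. These shares of tested genes are the background for the class counts that follow. Classes are given by their measured members, while these shares are of tested genes. The number tested, or too dim to be tested, stands beside the count where more than 2 were too dim. A gene is called higher or lower only where it passed the test. The median over all probe sets was -0.09 as deposited, 0.07 after quantile normalization and -0.04 with arrays centred on the receptor genes, so differences of about that size depend on the scaling. Where a gene was above background on no array of a group, its difference there is only one of measured signals. Such a gene supports only a bound, given as at least N-fold. It is taken from the brighter group's mean down to the mean background of the dimmer group's 3 arrays (6.26 diluted, 6.38 standard-labelled). No order is read among such genes.

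Malat1 was read by standard labelling alone. This long noncoding RNA of the nucleus measured 4.44, 4.32 and 4.32 in diluted cortex and 11.96, 11.62 and 11.91 in standard-labelled cortex. All 3 diluted arrays lay below background and all 3 standard-labelled arrays far above it, so that it was at least 47.4-fold lower in diluted cortex (means of 4.36 and 11.83, adjusted p 2.94e-08). Acads, the short-chain acyl-CoA dehydrogenase of mitochondrial fatty acid oxidation, went the other way, with 12.02, 11.89 and 11.86 in diluted cortex and 6.80, 6.65 and 6.72 in standard-labelled cortex. Its difference of 5.20 (SE 0.09, adjusted p 2.94e-08) was the highest measured difference of any named gene. Aqp2, the vasopressin-regulated water channel of the collecting duct, measured 11.82, 12.17 and 12.08 in diluted cortex and 7.48, 7.53 and 7.55 in standard-labelled cortex, a difference of 4.50 (SE 0.11, adjusted p 4.37e-08). For all 3 genes the gap between the groups was many times the range within a group.

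Other genes far above were Abhd17a (5.05), a depalmitoylating enzyme, and Slc22a12 (4.98), the urate transporter of the proximal tubule. Bckdha (4.95), the E1 alpha subunit of branched-chain ketoacid dehydrogenase, and Hpn (4.93), the membrane protease hepsin, stood near them. Pink1 (4.71) is a mitochondrial quality-control kinase, Igfbp4 (4.71) binds insulin-like growth factors, and Dohh (4.65) modifies the translation factor Eif5a. Amn (4.45) anchors cubilin in the proximal tubule brush border, Tspo (4.39) is a protein of the outer mitochondrial membrane, and Ninj1 (4.38) a cell surface protein that acts in membrane rupture. Of the 12 highest genes, Dohh was the 1 that standard labelling left below background, at 5.20, 5.21 and 5.18, against 9.89, 9.87 and 9.79 in diluted cortex. It was at least 11.1-fold higher in diluted cortex (adjusted p 2.94e-08).

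At the other end, the genes farthest below by measured difference were, with Malat1 (-7.47), Ddx6 (-6.38), an RNA helicase of P-bodies, and Rn7sk (-6.32), the 7SK RNA that holds back transcription elongation. Dnajc13 (-6.11) acts on endosomes, Taf1d (-6.09) in transcription of ribosomal RNA genes, and Lmbrd2 (-6.01) is a membrane protein. 4932438A13Rik (-5.96) is annotated by a clone name. Pbrm1 (-5.58) is a subunit of the PBAF chromatin remodelling complex, Zc3h12c (-5.45) a CCCH zinc finger protein and Fnbp1l (-5.33) an actin-linked membrane-bending protein. Dhx9 (-5.29) is an RNA helicase. Ddx6 measured 4.07, 3.71 and 3.68 in diluted cortex and 10.24, 10.11 and 10.25 in standard-labelled cortex. Dhx9 measured 3.81, 3.87 and 3.97 in diluted cortex and 9.23, 9.04 and 9.25 in standard-labelled cortex. The groups lay far apart for both helicases. Of the 12 genes farthest below, 10 were above background on every standard-labelled array and on no diluted array, the exceptions being Rn7sk and Dnajc13. For the 9 of those 10 that are named, the bounds ran from at least 7.53-fold lower in diluted cortex for Dhx9 to at least 47.4-fold lower for Malat1, with 15.3-fold for Ddx6 and 35.6-fold for Taf1d. No order is read among these 10 genes. Genes outside the 12 could have larger bounds than Dhx9, such as Wnk1 (at least 17.7-fold lower) and Syne2 (at least 12.8-fold lower). The choice of genes and the bounds go by the brightest probe set of each gene, and other probe sets can differ. A second probe set of Rn7sk differed by -8.21. The 9 probe sets of Taf1d ran from -6.09 to -1.06, with a median of -2.84, and the 3 of Pbrm1 from -5.58 to -2.87.

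**Figure D1:**
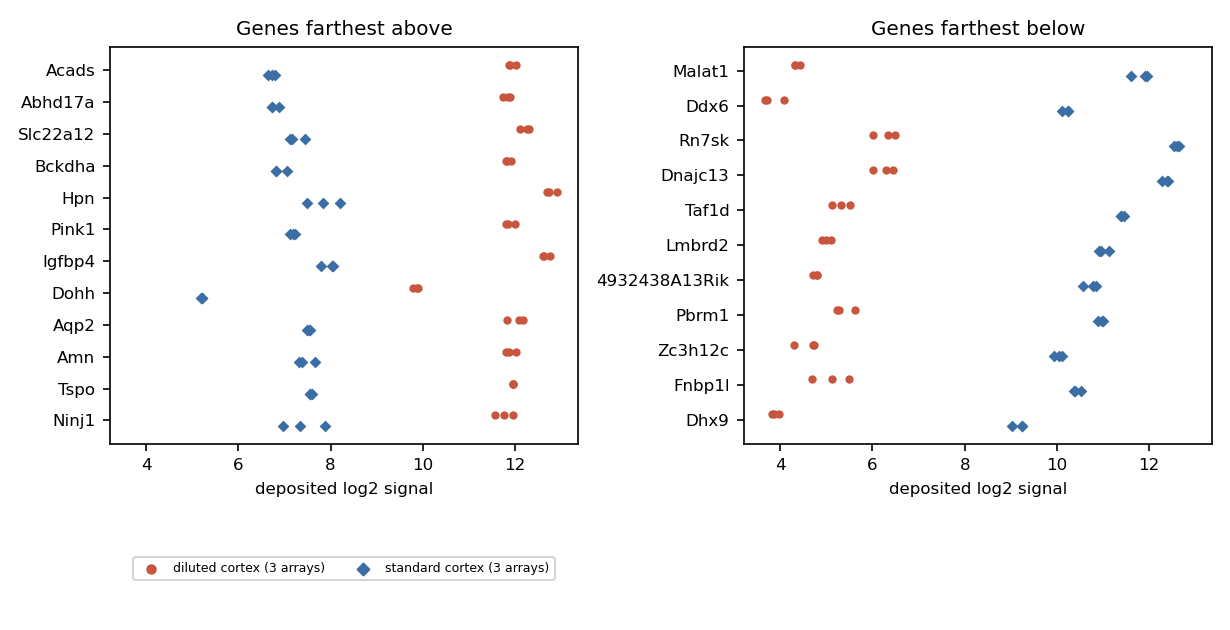
Deposited log2 signal (horizontal axis) of the 12 genes farthest above (left) and of those named as farthest below (right); circles are the 3 diluted cortex arrays and diamonds the 3 standard-labelled cortex arrays. The groups do not overlap for any gene shown, and Malat1 lies at 4.32 to 4.44 in diluted cortex against 11.62 to 11.96 in standard-labelled cortex.

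The 9 single cells were labelled with the same protocol as diluted cortex and give a further reading of the same probe sets, though in other cell types. Their own receptor background was higher, with 99th percentiles of 7.56 to 7.94 in JG cells and 7.15 to 7.57 in MM cells. Of the 12 genes farthest below in diluted cortex, 10 were above background in none of the 9 cells. The share of all genes that pass in none of the cells was not counted, so this count does not single these genes out. Malat1 lay at 5.17 to 6.30 in JG cells and 4.99 to 5.56 in MM cells. The exceptions were Rn7sk, above background in 7 cells, and Taf1d, above in 1. Of the 12 farthest above, Slc22a12 and Dohh were above background in no cell and the others in at least 2. Aqp2 read 8.67 to 8.97 in JG cells and 8.15 to 8.50 in MM cells, and Amn 8.64 to 9.12 in JG cells and 7.96 to 8.86 in MM cells, in narrow bands that held every cell, whereas Tspo ranged over 7.36 to 13.10 in JG cells. No test was made on these cells.

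The classes with the lowest median differences were lists of proteins known to be very large. On the diluted arrays the median level was 5.95 to 6.06 for chromatin regulators and 5.94 to 5.97 for giant cytoskeletal and membrane proteins, under background. The medians of these classes are therefore of measured signals, and no order is read among them. Of 45 measured chromatin regulators with long transcripts, 40 were lower in diluted cortex and 0 higher in the limma fit, with a median difference of -1.49. At an unadjusted p under 0.05 the higher count was also 0, as it was with an intensity trend in the fit. Both counts use the same tested members and are no separate support. Members dim in diluted cortex entered the test only through their standard-labelled level. Ep300, a histone acetyltransferase, measured 5.19, 4.90 and 4.89 in diluted cortex and 9.22, 9.20 and 9.29 in standard-labelled cortex. It was below background in diluted cortex and at least 7.85-fold lower there (means of 4.99 and 9.23, adjusted p 4.96e-08). The bounds were at least 9.36-fold lower for its partner Crebbp, 10.96-fold for the methyl-lysine reader Kmt2e and 4.83-fold for the histone demethylase Kdm5a (adjusted p 4.37e-08 to 5.68e-07), all below background in diluted cortex. The groups did not overlap for any of these 4 genes. The 4 tested members that were called in neither direction were the remodelling subunits Bptf (-0.26) and Smarca4 (0.27) and the methyltransferases Kmt2b (-0.19) and Setd1a (-0.13). Without standard-labelled array B, Kmt2b passed as lower, at -0.34 (adjusted p 0.03). Bptf passed as lower without standard-labelled array A, at -0.35, and after quantile normalization, at -0.34.

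Giant cytoskeletal and membrane proteins had 34 lower and 1 higher of 47 measured members, 44 of them tested, and a median of -1.50. Syne2, which links the nucleus to the cytoskeleton, measured 4.74, 4.88 and 4.97 in diluted cortex and 9.87, 10.04 and 9.90 in standard-labelled cortex. It was below background in diluted cortex and at least 12.8-fold lower there (means of 4.86 and 9.93, adjusted p 2.94e-08). Sptbn1, a spectrin of the membrane skeleton read in both groups, differed by -3.69. The others named here were below background in diluted cortex: the bounds were at least 5.39-fold lower for Vps13a, a lipid transfer protein, 8.19-fold for Lrba, a vesicle trafficking protein, and 3.27-fold for Cep290 of the ciliary transition zone. The 1 member that was higher was the cadherin Celsr2 (0.40). It no longer passed without diluted array A or C or standard-labelled array A or B, at 0.32 to 0.39 (adjusted p 0.0636 to 0.0743). Of the others, the polycystin Pkd1 (0.06), the non-muscle myosin Myh14 (0.11) and Tln1 (0.11), which ties integrins to actin, passed in neither direction. Among HECT and giant ubiquitin ligases with their deubiquitinases, 21 of 26 measured members were lower and 4 higher, with a median of -1.74. Usp9x, a deubiquitinase, measured 6.03, 5.71 and 5.82 in diluted cortex and 9.97, 9.84 and 9.95 in standard-labelled cortex, at least 12.6-fold lower in diluted cortex. Among ubiquitin ligases, Itch differed by -3.05, while Huwe1 and Birc6, below background in diluted cortex, were at least 8.12-fold and 4.75-fold lower there. Wwp2 (1.62) and Rnf123 (0.98), also ubiquitin ligases, were higher, as were Usp24 (0.41) and Rnf213 (0.33) by their brightest probe set. As means of all their probe sets Usp24 was lower, at -1.35, and Rnf213 stood at -0.06. Rnf213 also no longer passed without diluted array A (0.25) or standard-labelled array B (0.28). Rnf213 was below background on every standard-labelled array, and its mean in diluted cortex supported no fold. No transcript lengths were used, and membership of these classes rests on what the proteins are known to be.

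**Figure D2:**
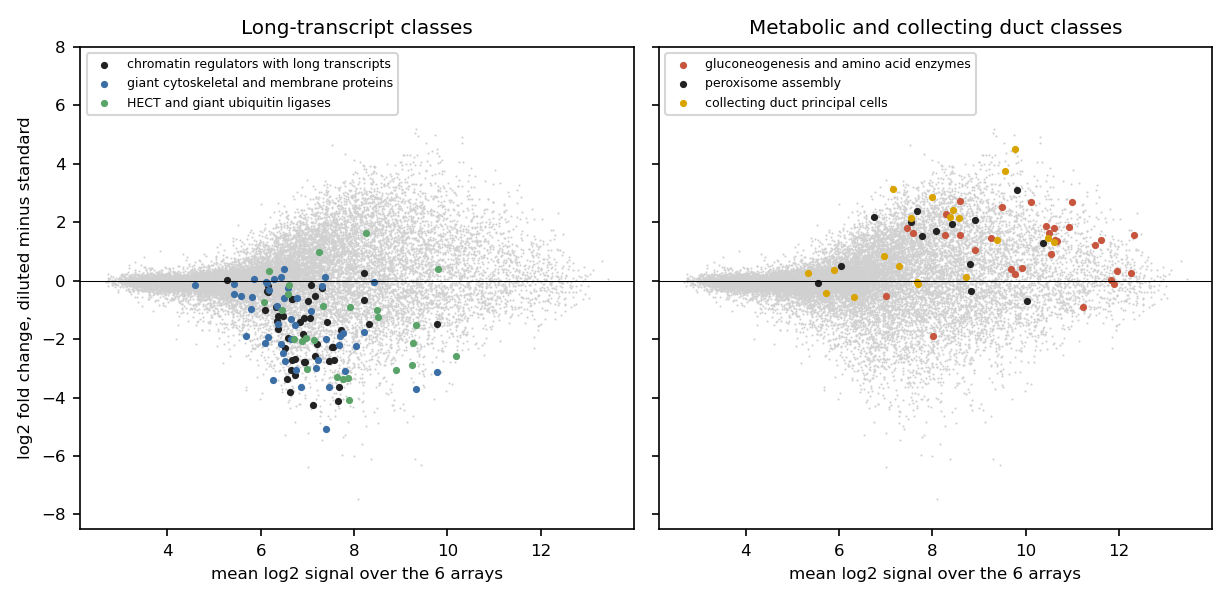
Difference in log2 signal, diluted minus standard-labelled (vertical axis), against the mean log2 signal over the 6 cortex arrays (horizontal axis); grey points are all 19938 named genes and coloured points the members of 3 long-transcript classes (left) or of 3 metabolic and collecting duct classes (right). The medians are -1.49, -1.50 and -1.74 in the left panel and 1.39, 1.62 and 1.36 in the right.

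In the proximal tubule the transporters and the protein uptake machinery parted. Of 33 solute transporters, 19 were higher in diluted cortex and 8 lower, with a median of 0.47. Slc22a12 measured 12.31, 12.11 and 12.27 in diluted cortex and 7.44, 7.17 and 7.13 in standard-labelled cortex. The phosphate transporters Slc34a3 (3.57) and Slc34a1 (2.12), the glucose transporter Slc5a2 (2.11), the water channel Aqp1 (2.16) and the organic anion transporter Slc22a6 (1.98) were also higher. Slc4a4, the basolateral bicarbonate exit route, was lower, at 8.10, 8.12 and 8.07 in diluted cortex against 11.79, 11.85 and 11.92 in standard-labelled cortex. The lactate transporter Slc5a12 (-2.77) and the sodium-proton exchanger Slc9a3 (-1.67) were lower as well. Members of this list lay up to 4.98 above and 3.76 below.

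Endocytosis genes of the same tubule had 12 lower and 5 higher of 19 measured members, with a median of -1.33. Lrp2, the giant receptor megalin, measured 8.13, 8.30 and 8.21 in diluted cortex and 11.38, 11.26 and 11.33 in standard-labelled cortex, a difference of -3.11 (SE 0.09, adjusted p 7.34e-08). Cubn, its partner cubilin, measured 6.98, 6.96 and 7.23 in diluted cortex and 10.67, 10.46 and 10.61 in standard-labelled cortex. Amn, the small membrane anchor of cubilin, measured 11.87, 11.81 and 12.02 in diluted cortex and 7.37, 7.66 and 7.32 in standard-labelled cortex. The subunits of this receptor complex therefore differed in opposite directions, Cubn by -3.53 and Amn by 4.45. Eea1, an early endosome tether below background in diluted cortex, was at least 9.42-fold lower there. The brush border peptidase Mme (-3.18) was lower, and Rab5a (2.01), the early endosome GTPase, was higher.

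Metabolic enzymes of the tubule were mostly higher in diluted cortex. Among enzymes of gluconeogenesis and amino acid breakdown, 25 of 31 were higher and 3 lower, with a median of 1.39. Pck1, the rate-limiting enzyme of gluconeogenesis, measured 12.77, 11.83 and 12.37 in diluted cortex and 10.15, 9.06 and 9.72 in standard-labelled cortex, a difference of 2.68 (SE 0.31, adjusted p 9.18e-05). Array A was the highest and array B the lowest in each group. The dehydrogenases of proline, Prodh (2.70), and hydroxyproline, Prodh2 (2.71), the mitochondrial serine enzyme Shmt2 (2.54) and pyruvate carboxylase, Pcx (2.27), were higher. Kynu (-1.89), of tryptophan breakdown, was lower, as was Glul (-0.89), glutamine synthetase, by its brightest probe set; as a mean of its probe sets it was higher, at 0.31.

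Fatty acid and branched-chain oxidation had 32 higher and 9 lower of 49 members and a median of 0.82. Bckdha measured 11.91, 11.81 and 11.82 in diluted cortex and 7.05, 6.81 and 6.81 in standard-labelled cortex. Acaa1b (3.85), a peroxisomal thiolase, Bcat2 (3.23), the mitochondrial branched-chain aminotransferase, and Ivd (2.53), isovaleryl-CoA dehydrogenase, were higher too. Within the same pathways Ehhadh, the peroxisomal bifunctional enzyme, was lower, at 6.23, 6.32 and 6.50 in diluted cortex against 9.90, 9.41 and 9.69 in standard-labelled cortex. Mmut (-1.69), methylmalonyl-CoA mutase, and Acadsb (-1.34), which oxidises short branched acyl-CoA, were lower as well. Of 14 peroxisome assembly genes, 11 were higher and 2 lower, with a median of 1.62; Pex16 (3.09), of membrane assembly, lay highest and Pex13 (-0.71), of the import pore, lowest. The count of lower ones was 1 without diluted array B or C or standard-labelled array A or C. In the citric acid cycle, 12 of 24 were higher and 4 lower, within a range of -0.81 (Dld, the shared E3 subunit) to 1.53 (Suclg1, a succinyl-CoA ligase subunit).

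Enzymes that handle foreign compounds and oxidants held members on either side. Of 82 cytochrome P450 genes, 17 were higher and 10 lower, and 48 were too dim to be tested. Cyp2d12 (2.24), Cyp2d9 (2.17) and Cyp4f13 (2.17) were higher, and Cyp39a1, a hydroxylase of sterols, was lower and below background in diluted cortex, at 4.86, 5.59 and 5.15 against 8.50, 8.23 and 8.17 in standard-labelled cortex, a bound of at least 4.11-fold lower. Members of the Cyp2d family are close copies of each other, and their probe sets may share signal. Of 48 conjugation enzymes, 30 of them tested, 17 were higher and 8 lower; the glutathione transferases Gstt1 (2.38), Gsto1 (2.21) and Gstt2 (2.19) lay highest. Of 36 antioxidant genes, 20 were higher and 8 lower. Txnrd2 (2.91), the mitochondrial thioredoxin reductase, and Sod3 (2.80), extracellular superoxide dismutase, were higher. Hmox1, a haem oxygenase below background in diluted cortex, was at least 1.47-fold lower there. The lower count was 5 without diluted array B or standard-labelled array A.

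**Figure D3:**
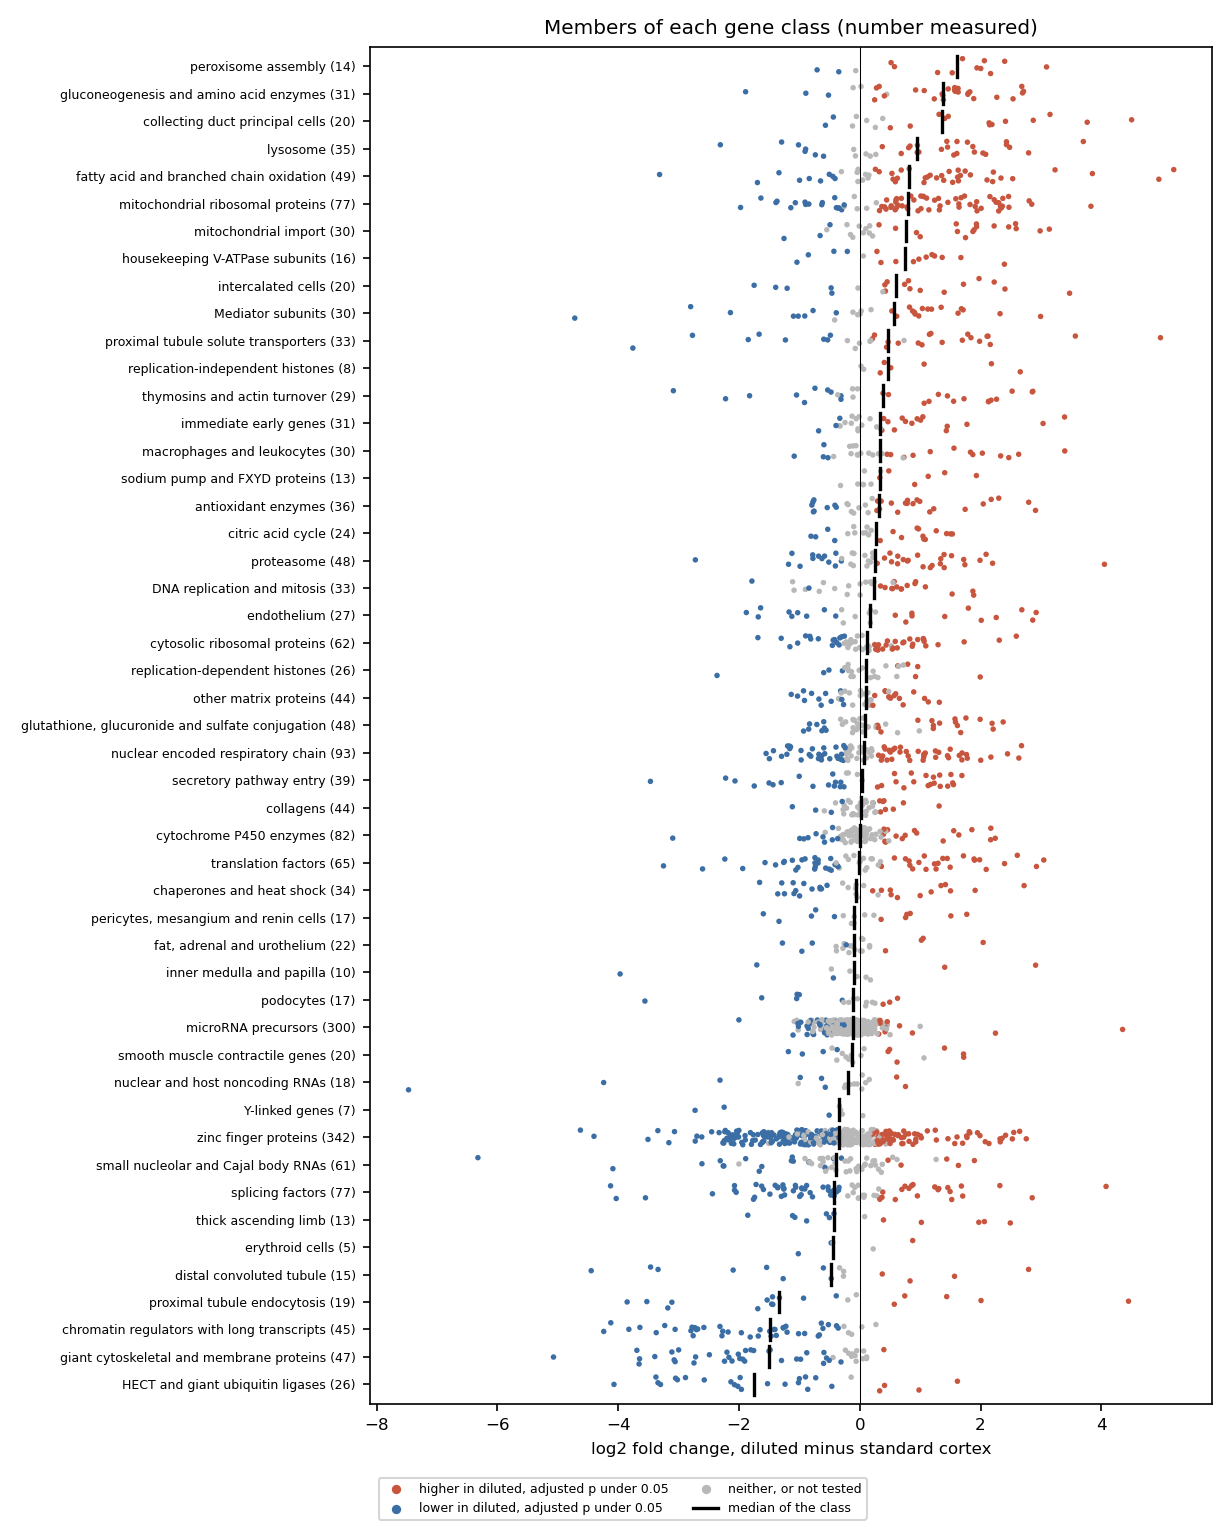
Difference in log2 signal, diluted minus standard-labelled (horizontal axis), of every measured member of 49 gene classes (rows, with the number of measured members); points are genes, coloured by the limma call at an adjusted p under 0.05, and black bars are class medians. By measured signal, peroxisome assembly has the highest median (1.62) and HECT and giant ubiquitin ligases the lowest (-1.74). Most classes hold members on either side of 0.

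Along the distal nephron the classes differed. Collecting duct principal cell genes had 13 higher and 2 lower of 20 measured members and a median of 1.36. Besides Aqp2, Hsd11b2, which guards the mineralocorticoid receptor from cortisol-like steroids, measured 11.34, 11.54 and 11.41 in diluted cortex and 7.60, 7.68 and 7.70 in standard-labelled cortex. Elf3, an epithelial transcription factor, was above background only in diluted cortex, at 8.71, 8.74 and 8.74 against 5.75, 5.41 and 5.57 in standard-labelled cortex, at least 5.11-fold higher. The water channel Aqp3 (2.87), the sodium channel subunit Scnn1b (2.41) and the vasopressin receptor Avpr2 (2.19) were higher, whereas the partner subunits Scnn1a (0.12) and Scnn1g (-0.12) passed in neither direction. The 2 members that were lower were St6gal1, a sialyltransferase, and Aqp4 (-0.44), a basolateral water channel below background in each group. St6gal1 was below background in diluted cortex and at least 1.27-fold lower there. Aqp4 no longer passed after quantile normalization (-0.24).

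Intercalated cell genes had 13 higher and 5 lower of 20 members, with a median of 0.60. The ammonia transporters Rhbg (3.48) and Rhcg (2.40) were higher. Of the proton pump subunits typical of these cells, Atp6v0a4 (-1.75), Atp6v1g3 (-1.39) and Atp6v0d2 (-1.20) were lower, and Atp6v1c2 (1.00) and Atp6v1b1 (0.43) were higher. In comparison, 11 of 16 housekeeping subunits of the same pump were higher and 4 lower. Among these housekeeping subunits Atp6v0b (2.40) lay highest and Atp6v0a1 (-1.04) lowest. The thick ascending limb had 5 higher and 7 lower of 13 members. Bsnd (2.49), the barttin subunit of chloride channels, and Cldn19 (2.06), a tight junction protein, were higher. The potassium channel Kcnj1 (-1.11) and Cldn16 (-1.07), which pairs with Cldn19 in magnesium uptake, were lower.

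The distal convoluted tubule had 4 higher and 8 lower of 15 members and a median of -0.47. Its defining sodium-chloride cotransporter Slc12a3 was higher, with 10.86, 10.91 and 10.89 in diluted cortex and 9.27, 9.44 and 9.24 in standard-labelled cortex. The kinases that regulate it parted. Wnk1 was lower, with 5.90, 6.03 and 5.95 in diluted cortex and 10.28, 10.42 and 10.51 in standard-labelled cortex, a bound of at least 17.7-fold lower. Stk39 (-3.34) was lower too, and Wnk4 (0.83) was higher. Wnk1 and the magnesium channel Trpm6 were above background only with standard labelling, Trpm6 with a bound of at least 1.52-fold lower. Of 13 sodium pump and FXYD genes, 6 were higher and 0 lower in the limma fit, where an unadjusted p under 0.05 and an intensity trend also gave 0 lower. Without standard-labelled array B, 1 was lower, the beta subunit Atp1b2 (-0.46, adjusted p 0.0069), which stood at -0.32 (adjusted p 0.0685) on all 6 arrays. Atp1b3 (1.93), another beta subunit, lay highest, while Atp1b1 (-0.03) and Fxyd2 (0.06), bright in both groups, passed in neither direction.

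Classes of cells outside the tubule held members on either side, as did the tested genes at large. In bulk cortex, fewer cells of a type and less RNA per cell cannot be told apart. Of 27 endothelial genes, 11 were higher and 9 lower, near the shares of all tested genes (42.6% and 32.7%). The junction protein Cldn5 (2.92) and the fenestral protein Plvap (2.86) were higher. The junction protein Esam, below background with standard labelling, was at least 5.37-fold higher in diluted cortex. The adherens junction cadherin Cdh5 (-1.64) was lower. The growth factor receptors Flt1 and Kdr, above background only with standard labelling, were at least 2.65-fold and 1.75-fold lower in diluted cortex. Of 17 podocyte genes, 14 of them tested, 3 were higher and 6 lower. The 3 that were higher were the transcription factor Wt1 (0.39), the slit diaphragm protein Nphs1 (0.50) and the cell cycle inhibitor Cdkn1c (0.63). Their count fell to 0 without diluted array C or standard-labelled array C and to 1 without diluted array B or standard-labelled array A. As a mean of its probe sets Nphs1 stood at -0.05. Among those that were lower, Cd2ap, a slit diaphragm adaptor, measured 7.79, 7.73 and 7.58 in diluted cortex and 11.12, 11.33 and 11.32 in standard-labelled cortex. Among pericyte, mesangial and renin cell genes, 6 of 17 were higher and 5 lower, from the gap junction protein Gja4 (1.77) to the pericyte regulator Rgs5 (-1.60).

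Leukocyte genes had 13 higher and 4 lower of 30 measured members, of which 21 were tested and 9 were too dim. Cd74, the invariant chain of antigen presentation, measured 9.76, 9.64 and 9.63 in diluted cortex and 6.16, 6.33 and 6.37 in standard-labelled cortex. The complement genes C1qa and C1qb, the lysozyme Lyz2, the receptor chain Fcer1g, Coro1a and Cd79b were above background only in diluted cortex. Their bounds were, in that order, at least 5.27-fold, 3.08-fold, 2.42-fold, 2.01-fold, 1.99-fold and 1.14-fold higher. Ptprc, the pan-leukocyte CD45, measured 4.85, 5.03 and 4.88 in diluted cortex and 5.89, 5.93 and 6.18 in standard-labelled cortex, below background in each group, so no fold is read. Of 20 smooth muscle genes, 15 of them tested, 6 were higher and 4 lower. Of 44 other matrix genes, 36 of them tested, 14 were higher and 12 lower. Of 44 collagens, 37 of them tested, 9 were higher and 4 lower. The higher count of collagens was 5 without diluted array C, 5 without standard-labelled array B and 4 without standard-labelled array C, and the lower count was 7 without standard-labelled array B. Of 22 genes of fat, adrenal and urothelium, 10 of them tested, 4 were higher and 4 lower. The uroplakins Upk3a, Upk1a and Upk2 (1.02) and the keratin Krt5 (0.43) were higher, though Krt5 lay below background in each group. Upk2 and Krt5 no longer passed without diluted array B or C or standard-labelled array C, which left 2 higher. Upk3a measured 7.35, 8.32 and 7.85 in diluted cortex and 5.70, 5.89 and 5.80 in standard-labelled cortex.

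In the machinery of every cell, members of the same complex lay on either side of 0, as did the tested genes at large. Cytosolic ribosomal protein genes had 26 higher and 16 lower of 62 members and a median of 0.12. Rplp1 (2.31) of the stalk and Rpl13 (1.73) were higher, and Rps28 (-1.69) and Rpl38 (-1.16) were lower; these genes have many near-identical copies in the genome, so their probe sets may take signal from them. Mitochondrial ribosomal protein genes had 55 higher and 17 lower of 77 and a median of 0.79. Mrpl38 measured 11.12, 11.14 and 11.11 in diluted cortex and 7.34, 7.26 and 7.30 in standard-labelled cortex, while Mrps18c (-1.97) lay lowest. For the import pores of mitochondria, 17 of 30 were higher and 3 lower. Tomm40 (3.14), the outer membrane pore, and Tomm22 (2.99), its receptor, were higher, and the small subunit Tomm7 (-1.25) was lower. Of 93 respiratory chain genes, 39 were higher and 30 lower, near the shares of all tested genes (42.6% and 32.7%). They ran from Ndufs7 (2.68) to Ndufs6 (-1.55), which sit in the same complex.

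The proteasome had 24 higher and 13 lower of 48. Psmd3, a lid subunit, measured 11.40, 11.46 and 11.51 in diluted cortex and 7.11, 7.64 and 7.46 in standard-labelled cortex, and the large activator Psme4 was lower, by -2.72. Translation factors had 24 higher and 27 lower of 65. Eif2b4 (3.05) and Eif5a (2.93) were higher, and Eif3a (-3.25), a large scaffold subunit, Eif2s3x (-2.23) and Eif5b (-1.94) were lower. Secretory pathway entry had 19 higher and 16 lower of 39, from P4hb (1.69), a disulfide isomerase, to Ost4 (-3.47), a very small subunit of the glycosylation complex. Ost4 measured 7.67, 7.43 and 7.52 in diluted cortex and 10.86, 11.12 and 11.04 in standard-labelled cortex. Chaperones had 12 higher and 14 lower of 34, from Hspb1 (2.72), a small heat shock protein, to Dnajc7 (-1.66).

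Lysosomal genes were mostly higher, 23 of 35 with 7 lower and a median of 0.96. The sialidase Neu1 measured 11.79, 11.55 and 11.65 in diluted cortex and 8.07, 7.82 and 7.99 in standard-labelled cortex. The protease Ctsz (2.80), progranulin, Grn (2.43), and acid glucosidase, Gaa (2.43), were higher, and beta-mannosidase, Manba (-2.31), and the membrane protein Cd63 (-1.29) were lower. Of 29 actin turnover genes, 15 were higher and 10 lower. Pfn1, profilin, measured 13.01, 13.00 and 12.97 in diluted cortex and 10.10, 10.09 and 10.22 in standard-labelled cortex, and Arpc1b (2.87), of the Arp2/3 complex, was also higher. Capza1 (-3.09), which caps filament ends, Rdx (-2.22), which links actin to membranes, and Actb (-1.05) were lower.

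Among nuclear factors, splicing genes had 22 higher and 42 lower of 77 and a median of -0.42. The core Sm proteins parted: Snrpb measured 11.29, 11.29 and 11.32 in diluted cortex and 7.21, 7.22 and 7.23 in standard-labelled cortex, whereas Snrpd3 measured 7.79, 7.56 and 7.72 in diluted cortex and 11.78, 11.64 and 11.74 in standard-labelled cortex. Hnrnpul2 (-4.13), an RNA-binding protein, and Srsf5 (-3.55), a splicing activator, were lower too. Zinc finger genes had 71 higher and 140 lower of 342, 261 of them tested. Zfp637 (2.76) lay highest. Zfp871, below background in diluted cortex, was at least 10.1-fold lower there. Of 30 Mediator subunits, 16 were higher and 8 lower. Med25 (2.99) was higher, and Med16, below background with standard labelling, was at least 3.94-fold higher in diluted cortex. The backbone subunit Med14 (-2.80) was lower. The kinase module subunit Med13, below background in diluted cortex, was at least 11.9-fold lower there.

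Genes that cells switch on within minutes of a stimulus had 15 higher and 3 lower of 31 members, 26 of them tested. Gadd45g, a stress gene, measured 9.88, 9.06 and 9.43 in diluted cortex and 6.36, 5.97 and 5.87 in standard-labelled cortex. Gadd45g and Ier2, below background with standard labelling, were at least 8.47-fold and 5.23-fold higher in diluted cortex. Klf6 (-0.68), a zinc finger factor, was lower. Of 33 genes of DNA replication and mitosis, 25 of them tested, 15 were higher and 2 lower. The replication helicase subunits Mcm7 (1.89) and Mcm2 (1.53) were higher, and Hmgb2 (-1.79), a chromatin protein, and the proliferation antigen Mki67 (-0.84) were lower. The helicase subunit Mcm3 and the licensing factor Cdt1, below background with standard labelling, were at least 1.05-fold and 2.87-fold higher in diluted cortex. Mki67 lay below background in each group, and the lower count was 1 without standard-labelled array B. Of 26 replication-dependent histone genes, whose messages end without a poly(A) tail in dividing cells, 12 were too dim to be tested, 5 were higher and 4 lower, from H4c9 (1.99) to H2bc21 (-2.36). Their probe sets may share signal, since the genes are near copies. Of 8 replication-independent histone genes, 6 were higher and 0 lower in the limma fit, with 0 lower also at an unadjusted p under 0.05 and with an intensity trend. Macroh2a1 (2.66), of silent chromatin, and H2az2 (2.18), a variant near promoters, lay highest. Of 5 erythroid genes, 1 was higher and 2 lower. Of 7 Y-linked genes, 4 of them tested, 3 were lower and 0 higher, the count of higher genes again being 0 at an unadjusted p under 0.05 and with an intensity trend.

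RNAs that are not translated had more members lower than higher. Of 61 small nucleolar and Cajal body RNAs, with Rn7sk and Rnu7 among them, 5 were higher, 16 lower and 33 too dim to be tested, with a median of -0.39. The higher count was 8 without diluted array B. Rn7sk measured 6.01, 6.33 and 6.49 in diluted cortex and 12.54, 12.66 and 12.61 in standard-labelled cortex. Snord104 measured 6.49, 7.04 and 6.88 in diluted cortex and 10.79, 11.03 and 10.84 in standard-labelled cortex. Small nucleolar RNAs are cut from the introns of other genes, and some moved apart from them. Snora23, at least 2.30-fold lower, lies within Ipo7, an importin at least 10.9-fold lower, and both were below background in diluted cortex. Snord14e (-1.89) lies within Hspa8 (-0.04, adjusted p 0.64), a chaperone that passed in neither direction. Snord42b and Snord42a (-0.58) lie within the same gene, Rpl23a (0.11, adjusted p 0.29). Snord42b, below background with standard labelling, was at least 1.07-fold higher in diluted cortex. Of 18 other noncoding RNAs of the nucleus and small RNA hosts, 14 of them tested, 2 were higher and 6 lower. Tug1 (-4.24) and the small RNA host Gas5 (-2.31) were lower, and Norad (0.04) passed in neither direction.

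Of 300 microRNA precursors, 10 were higher, 37 lower and 230 too dim to be tested, with a median of -0.11 as deposited and 0.06 after quantile normalization. The probe sets read whatever RNA spans the precursor, host transcript included, and not the mature microRNA. The precursor of miR-135a at its first locus measured 10.19, 9.84 and 9.94 in diluted cortex and 5.73, 5.39 and 5.79 in standard-labelled cortex, where it was below background, so that Mir135a-1 was at least 12.3-fold higher in diluted cortex (means of 9.99 and 5.64, adjusted p 1.03e-07). It lies within Glyctk, glycerate kinase, which was higher as well, with 9.27, 9.17 and 9.10 in diluted cortex and 6.76, 6.96 and 6.83 in standard-labelled cortex. Mir196b measured 8.74, 9.28 and 9.02 in diluted cortex and 6.79, 6.77 and 6.75 in standard-labelled cortex. Mir191 and Mir425, which standard labelling left below background, lie within Dalrd3, which differed by 2.89. Mir191 was at least 1.54-fold higher in diluted cortex, while the mean of Mir425 there supported no fold. In Tango2 the host was higher (3.09) and Mir185 within it was lower (-0.36). Of 47 precursors that differed, 40 had a mature sequence in the RefSeq table of build GRCm38.p6. Sequences from the 4 precursors with the highest measured differences among those with a mature sequence are shown 5′ to 3′, with the seed, bases 2 to 8, in capitals, and none of these seeds is the same as another.
mmu-miR-135a-5p, chr9:106154140-106154162, plus strand: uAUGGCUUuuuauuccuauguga
mmu-miR-135a-1-3p, chr9:106154179-106154200, plus strand: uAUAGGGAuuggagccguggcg
mmu-miR-196b-5p, chr6:52230129-52230150, minus strand: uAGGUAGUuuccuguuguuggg
mmu-miR-196b-3p, chr6:52230094-52230115, minus strand: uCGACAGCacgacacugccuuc
mmu-miR-191-5p, chr9:108568325-108568347, plus strand: cAACGGAAucccaaaagcagcug
mmu-miR-425-5p, chr9:108568789-108568811, plus strand: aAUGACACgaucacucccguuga

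Some genes were read by 1 labelling alone. Above background on all 3 diluted arrays and on no standard-labelled array were 968 genes (4.86% of 19938), and above background on all 3 standard-labelled arrays and on no diluted array were 733 (3.68%). With a lower background, the receptors' 95th percentile, the counts were 273 in diluted cortex only and 542 in standard-labelled cortex only. With the 99th percentile and group means at least 1 log2 unit apart, they were 566 in diluted cortex only and 637 in standard-labelled cortex only. Chromatin regulators with long transcripts had 0 of 45 members read in diluted cortex only and 23 read in standard-labelled cortex only. Among them were Kmt2a and Kmt2c, histone methyltransferases, Setd2, which marks transcribed genes, Tet1 and Tet2, which oxidise methylated DNA, and Chd2, Chd8 and Arid2, of chromatin remodelling. In the same order of groups, giant cytoskeletal and membrane proteins had 1 and 17 of 47, ubiquitin ligases and deubiquitinases 0 and 7 of 26, and zinc finger genes 16 and 46 of 342. Dst and Macf1, which link cytoskeletal systems, Utrn, utrophin, and Fat1, a giant cadherin, were read with standard labelling alone.

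Genes read with the single cell protocol alone included 6 of 30 leukocyte genes and 6 of 44 matrix genes, against 0 and 2 with standard labelling alone. Agrn, agrin, Lama5, a laminin chain of the glomerular basement membrane, and the fibulins Fbln1 and Fbln2 were among the matrix genes, and Fn1 and Lama1 were read with standard labelling alone. All lay near background, with bounds of at least 1.13-fold, 1.19-fold, 1.07-fold and 1.33-fold higher for Agrn, Lama5, Fbln1 and Fbln2. For Fn1 and Lama1 the bounds were at least 1.31-fold and 1.21-fold lower in diluted cortex. Of 31 immediate early genes, 4 were read in diluted cortex alone (Atf3, Gadd45b, Ier2 and Gadd45g) and 0 in standard-labelled cortex alone. Atf3 averaged 6.36 in diluted cortex, under the mean standard-labelled background of 6.38, so no fold is read. The bound for Gadd45b was at least 1.51-fold higher. Of 33 genes of DNA replication and mitosis the counts were 5 (Ccna2, Aurkb, Ube2c, Mcm3 and Cdt1) and 0. Their bounds were at least 1.05-fold higher for Ccna2 and Mcm3, 1.26-fold for Aurkb, 1.25-fold for Ube2c and 2.87-fold for Cdt1. The diluted means of Ccna2 (6.44) and Mcm3 (6.45) lay under the background of standard-labelled array A. Above background on all 3 arrays were 21 of these 33 genes in diluted cortex and 9 in standard-labelled cortex, and 16 and 7 of 30 leukocyte genes. The background of standard-labelled array A was the highest, at 6.52 against 6.31 on arrays B and C. Without that array, 996 genes were read in diluted cortex only and 922 in standard-labelled cortex only.

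**Figure D4:**
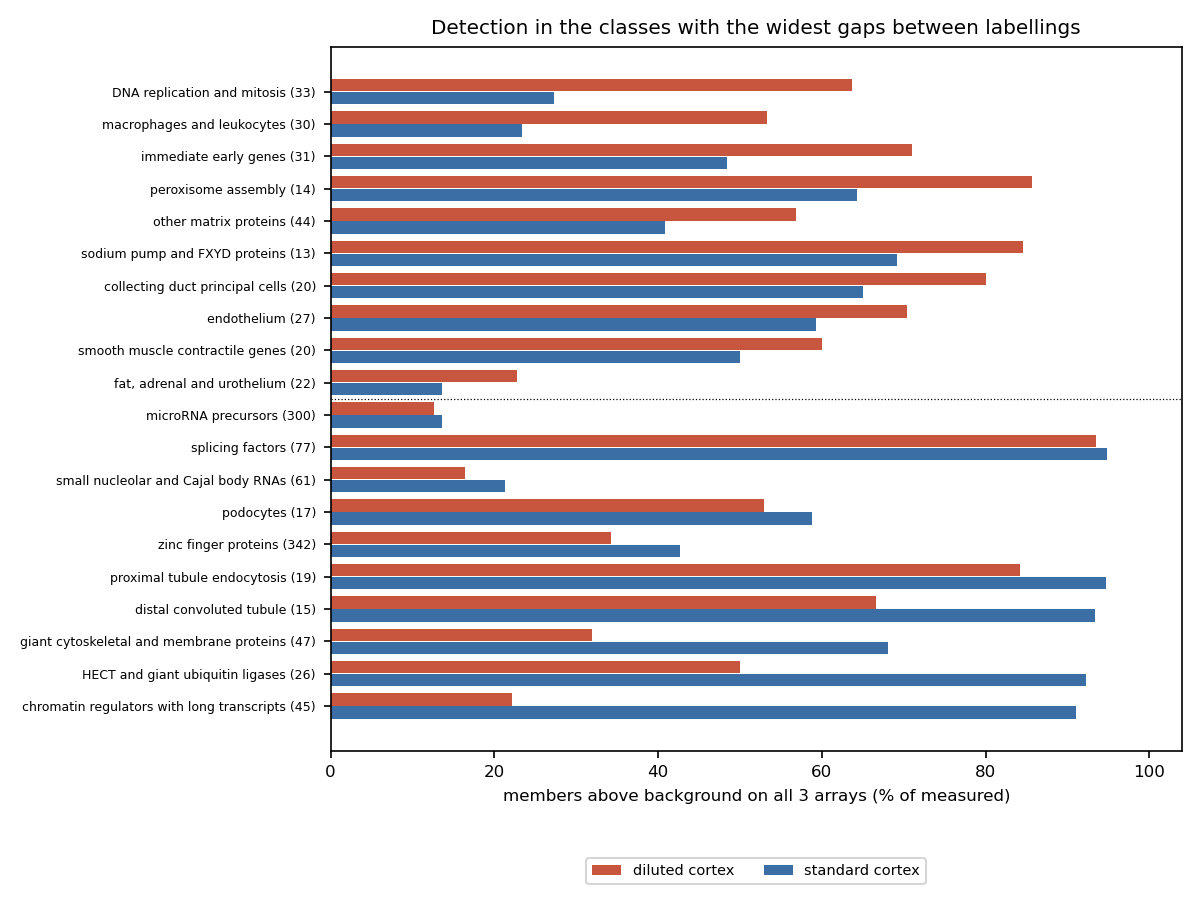
Share of measured members above background on all 3 arrays (horizontal axis, percent) in the 10 classes where diluted cortex (upper bar) exceeded standard-labelled cortex (lower bar) most, above the dotted line, and the 10 with the widest gap the other way, below it; class sizes stand in brackets. Chromatin regulators with long transcripts had 10 of 45 members above background in diluted cortex and 41 in standard-labelled cortex.

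Probe sets annotated to the same gene could differ. Of 695 genes with at least 2 tested probe sets, 91 had probe sets called in opposite directions. In Dnajc13 all 15 probe sets were lower, by -1.45 to -6.44, and in 4932438A13Rik all 19, by -0.91 to -6.10. In Cspp1, a centrosome gene, 13 of 14 were lower and 1 higher, over -5.07 to 0.61. Probe sets parted by direction in Atp13a3 (-3.85 and 0.90), a polyamine transporter, Gsdme (-3.40 and 1.09), a pore-forming gasdermin, and Larp1 (-2.07 and 2.28), an RNA-binding protein. They also parted in Tns1 (-3.46 to 0.54), of focal adhesions, and in Serf2 (-2.28 and 1.67). For such genes the value of the brightest probe set does not speak for its other probe sets. Which part of the gene each probe set reads was not analysed here.

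Some genes varied widely among the arrays of a group. They were chosen after their values were seen, as the genes with the largest SD within groups. Ttr, the carrier of thyroxine and retinol, measured 6.64, 11.02 and 10.36 on diluted arrays A, B and C and 6.27, 11.20 and 10.47 on standard-labelled arrays A, B and C. Cyp7b1, an oxysterol hydroxylase, measured 10.72, 7.85 and 10.09 in diluted cortex and 10.57, 7.39 and 9.90 in standard-labelled cortex. Ttr was thus low on array A, and Cyp7b1 on array B, with either labelling. Slco1a1, an organic anion transporter, measured 8.60, 6.39 and 8.07 in diluted cortex and 10.46, 8.04 and 10.11 in standard-labelled cortex, so the array letters kept their order under a difference of -1.85 (SE 0.73, adjusted p 0.0496). That difference did not pass without diluted array B (-1.20) or C (-2.04) or standard-labelled array A (-1.39) or C (-1.56), nor with receptor centring (adjusted p 0.0571) or without the filter on dim probe sets (adjusted p 0.0735). Acta2, smooth muscle actin, measured 8.13, 9.89 and 9.28 in diluted cortex and 6.80, 8.91 and 8.40 in standard-labelled cortex. Its difference of 1.06 passed the test only without diluted array A (1.55) or with the array letters as a block. Arntl, a core activator of the clock, measured 6.23, 7.61 and 7.17 in diluted cortex and 6.03, 7.86 and 7.01 in standard-labelled cortex. Nfil3, a repressor in the clock, measured 6.99, 8.72 and 8.31 in diluted cortex and 7.12, 8.76 and 8.36 in standard-labelled cortex. Ciart, a clock repressor, had the reverse array order, with 8.37, 5.45 and 7.63 in diluted cortex and 6.74, 5.15 and 6.54 in standard-labelled cortex. Dbp, a clock output factor, ran the same way as Ciart in diluted cortex, with 9.76, 7.52 and 9.13, while it spanned only 7.01, 6.63 and 6.68 in standard-labelled cortex, and differed by 2.03 (adjusted p 0.0062). Of the 50 genes with the largest SD, array A stood on the same side of array B in both labellings in 38, and array C lay between A and B in 49 with the single cell protocol and in 36 with standard labelling.

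**Figure D5:**
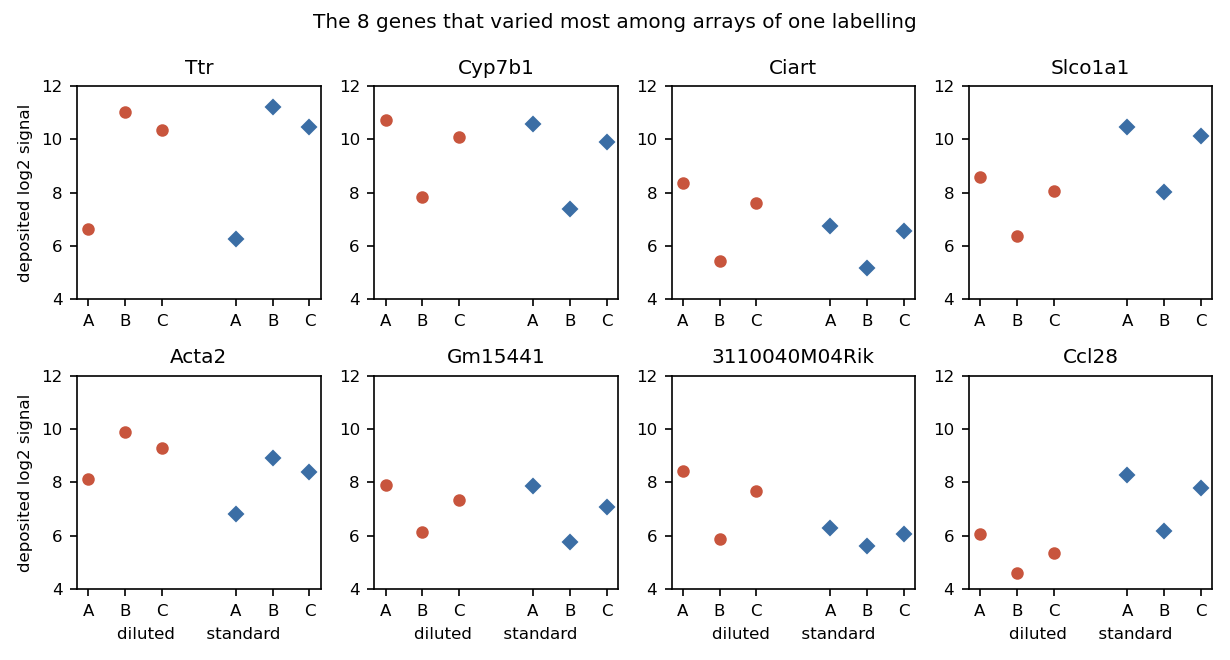
Deposited log2 signal (vertical axis) on cortex arrays A, B and C of the diluted group (circles, left) and the standard-labelled group (diamonds, right) for the 8 genes with the largest SD within groups. Ttr is lowest on array A and Cyp7b1 on array B in both groups.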

How the data were processed

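The authors deposited log2 signals for 35557 probe sets on 15 arrays. Per the submitters' processing notes they were made with Affymetrix Expression Console. Its version is not given in the sources used here, and neither is the algorithm or a normalization, so the log2 values were used as deposited. Arrays have no count depth, and their number limits the precision.

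The platform annotation names 1 gene for 21789 probe sets and several for 1621, while 12147 are unlisted and unnamed here; 21698 matched the RefSeq gene table (GRCm38.p6). A gene was represented by its brightest probe set over the 15 arrays. The 6 cortex arrays were fitted with limma 3.58.1 (lmFit, eBayes) in R 4.3.3 without covariates. Probe sets were kept whose brighter group averaged at least the median over the 6 arrays, and p-values were Benjamini-Hochberg adjusted over 19531 probe sets, of which 7430 (38.0%) were higher and 7169 (36.7%) lower. A member that passed this filter only where it is high had to differ, so medians cover all measured members. The fit was tested on simulated data. Counts, medians and plots came from Python 3.11.15, using pandas 2.3.3, numpy 2.4.6 and matplotlib 3.10.9.

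The arrays, the 50 gene lists and the rule for named genes were chosen with earlier results of these data known. Named were the 12 genes farthest each way, up to 4 members at each end of a list, Malat1, Acads and Aqp2, listed genes read with 1 labelling alone, and the 6 genes with the widest gaps between probe sets; a few list members and the genes that varied among arrays were added after their values were seen. Another scaling, filter, variance model, probe set rule and background were tried, and each array was left out. Of the 12 genes farthest below, 1 is not reported here by name. Medians by protein length were not run, since no length table was used here.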

Additional observations from a re-analysis of the deposited data

How the results depend on the processing

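Malat1, Acads and Aqp2 kept their direction and passed under every alternative run. They are among the 12 genes farthest each way, so this says little about genes with smaller differences. Leaving out each array in turn gave 6813 to 7330 probe sets higher and 6618 to 7060 lower in diluted cortex, 996 to 1162 genes read in diluted cortex only, 745 to 922 in standard-labelled cortex only, and 27 to 29 of 50 gene lists with a median above 0. The lists above 0 were 33 after quantile normalization, 33 with the filter at the receptors' 99th percentile and 31 with receptor centring, and in 11 lists the median changed sign under some alternative. These were the receptors, cytochrome P450 enzymes, smooth muscle, pericytes with mesangium, collagens, fat with adrenal and urothelium, inner medulla, respiratory chain, translation factors, secretory pathway entry and microRNA precursors, with medians between -0.13 and 0.07 as deposited. Counts of probe sets higher and lower were 7651 and 7139 after quantile normalization, 7800 and 6808 with receptor centring, and 7671 and 10212 without the filter, which tests more probe sets. Genes read in diluted cortex only were 273 with the receptors' 95th percentile as background and 566 with group means at least 1 log2 unit apart. With a gene taken as the mean of its probe sets, the direction turned for Glul (0.31), Nphs1 (-0.049), Snhg17 (-0.16), Rnf213 (-0.059), Usp24 (-1.35), Gsdme (-1.15) and Serf2 (-0.31). With the brightest probe set over the cortex arrays it turned for Srp9 (0.51) and Gsdme (-3.40). After quantile normalization 8 citric acid cycle and 7 mitochondrial import genes were lower and 17 microRNA precursors higher, while without the filter 28 small nucleolar RNAs, 82 microRNA precursors and 8 replication and mitosis genes were lower. The cause was not tested.

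The letters A, B and C were not taken to pair the arrays: the deviations of same-lettered arrays correlated at 0.089, 0.070 and 0.021 over all genes, and diluted array C correlated best with standard-labelled array B (0.042). Over the 50 genes with the largest SD, chosen after their values were seen, the same correlations were 0.67, 0.65 and 0.41. Between arrays of other letters they ran from -0.66 to 0.14 over these genes. The letters as a replicate block gave 7461 probe sets higher and 7170 lower, 14271 of them shared with the 14599 calls made without the block, and 87 genes with probe sets called in opposite directions. Medians by coding length were not run. With 3 arrays a group, the spread of single genes is loosely known, and levels near the receptor background have no clear order.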
